A study of Mus musculus with 12 samples.

Results

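The deep-layer cortical neuron genes are 10 genes that mark neurons of layers 5 and 6 of the cerebral cortex or the cells that found them: Fezf2, Bcl11b, Tbr1, Tle4, Sox5, Foxp2, Ldb2, Zfpm2, Crym and Pcp4. They were taken by symbol, as every probe that the scanner files name for 1 of these genes, which gave 18 of 55681 probes and 10 of 35831 named genes. Of the 18 probes, 17 passed the filter on dim signal in the cultures, and all 10 genes were tested. The failing probe was 1 of 3 for Foxp2.

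The deep layers hold the neurons that send axons out of the cortex, to the thalamus, brainstem and spinal cord. Fezf2 and Bcl11b (also called Ctip2) specify the layer 5 neurons that project below the brain's hemispheres, and Tbr1 specifies the layer 6 neurons that project to the thalamus, in part by holding Fezf2 down in them. Sox5 sets the order in which these deep neurons and the subplate mature. Several of the genes are shared with other cells: Bcl11b and Foxp2 are also made by striatal neurons, Tbr1 by the earliest-born cells at the cortical surface and by hippocampal neurons, and Pcp4 by many neurons outside the cortex.

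Agilent expression arrays of 1 colour, 12 in number, gave the RNA levels. The 8 culture arrays hold neurons made from male mouse embryonic stem cells of the 129/Ola background, at day 16 in vitro, 2 arrays for each of 4 groups. Per the labels, every culture received the WNT inhibitor 53AH at 2.5 µM and the BMP inhibitor LDN193189 at 0.25 µM from day 0. WiBi_0-11, which the growth protocol calls isocortical, kept them to day 11, and WiBi_0-16 kept them to day 16. In CHIR_8-16, called hippocampal, the inhibitors gave way at day 8 to the WNT agonist CHIR at 3 µM until day 16, although the protocol's steps add up to a change 1 day earlier. In CHIR_11-16 the change came at day 11, at an agonist dose the labels do not give. No group went without the inhibitors, so each comparison is between lengths of inhibition or between inhibition and agonist that followed it. The other 4 arrays hold tissue of E15 embryos of strain Sv129s6, of mixed sex: 1 array each for cortex, hippocampus, midbrain and ventral telencephalon. RNA from 3 sets of experiments was pooled in each sample, and nothing in the labels says that the 2 arrays of a culture group came from separate cultures, so p-values measure the spread between these arrays, which may be technical.

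Values are normalised log2 signals: the log2 signal of a probe minus the 75th percentile of its own array, so that 0 is the level of a probe at that percentile and a step of 1 is a doubling. A level is compared only with the same probe on other arrays. Between 59.06% and 71.18% of the spots were well above background on each array, and no spot was saturated. Slide 1 carried the embryo arrays, slide 2 the first array of each culture group and slide 3 the second. The cultures held neurons by Tubb3, a tubulin of neurons, at 6.09 to 6.77 against 7.11 in E15 cortex. They stood far from E15 cortex in Neurod6, a factor of pallial projection neurons, at -1.15 to -0.06 against 5.40. Progenitor and proliferation genes were also present, with a summed log2 level of 7.72 to 8.57 in the cultures and 7.76 in E15 cortex. A summed log2 level, here and below, is the log2 of the sum of the unlogged levels of a list's genes. The brightest probes of a list weigh most in it. Pools of cells cannot tell fewer cells of a type from less RNA per cell, for any gene below.

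3 of the probes are shown because what a probe binds bears on the reading of its gene. The Fezf2 and Sox5 probes stand for their genes, while Bcl11b levels are read by a brighter probe, A_52_P925277, that is not shown. The Fezf2 probe, at chr14:13175057-13175116 of mm9 on the minus strand, and a Bcl11b probe, at chr12:109153847-109153906 on the minus strand, are ordinary 60-base sequences placed whole on the genome. The probe that stands for Sox5 by the brightest-probe rule, at chr6:143776945-143776971 on the minus strand, is of another kind, and its first 30 bases are given with each run of GGA triplets in capitals.

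Fezf2 probe A_51_P206489: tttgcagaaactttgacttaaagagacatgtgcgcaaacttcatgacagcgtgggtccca
Bcl11b probe A_51_P171772: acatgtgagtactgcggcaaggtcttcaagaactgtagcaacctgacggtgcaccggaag
Sox5 probe A_55_P2156905, first 30 bases: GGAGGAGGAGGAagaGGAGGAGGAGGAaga

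The Sox5 probe consists of purines alone and holds 16 GGA triplets, and 0.0413% of all 60-base probes are as rich in purines. The file places 27 of its 60 bases on the genome. It was bright on all 12 arrays, at 5.28 to 7.36, E15 midbrain included at 5.51. Another Sox5 probe, A_51_P500318, lay at -1.91 in E15 cortex and -4.77 in E15 midbrain. Both are given below, and the second was chosen after its values were seen.

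In the cultures, none of the 10 genes passed the test in any of the 7 comparisons of groups or in the F test over the 4 groups (limma, Benjamini-Hochberg adjusted p under 0.05 over 25527 genes). Of the 70 member tests, 1 had an unadjusted p under 0.05, where 2.62% to 15.3% of all genes did in the 7 comparisons. The share of all genes called was 0.0118% between CHIR_8-16 and WiBi_0-11, 0.0157% between CHIR_8-16 and WiBi_0-16, 0.00783% between the 4 agonist and the 4 inhibitor-only arrays, and 0% in the other 4 pairs and the F test. With slide as a block the shares were 0.309%, 1.25% and 3.24% in those 3 comparisons, 0.0548% in the F test and 0% to 0.0118% in the others, and 0 of the 10 genes were called. With the block 15 of the 70 member tests had an unadjusted p under 0.05, from 0 of 10 members between WiBi_0-16 and WiBi_0-11 (10.8% of all genes) to 4 of 10 between CHIR_8-16 and WiBi_0-11 (22.1%). Over the 7 comparisons 10.8% to 24.6% of all genes did so.

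**Figure D1:**
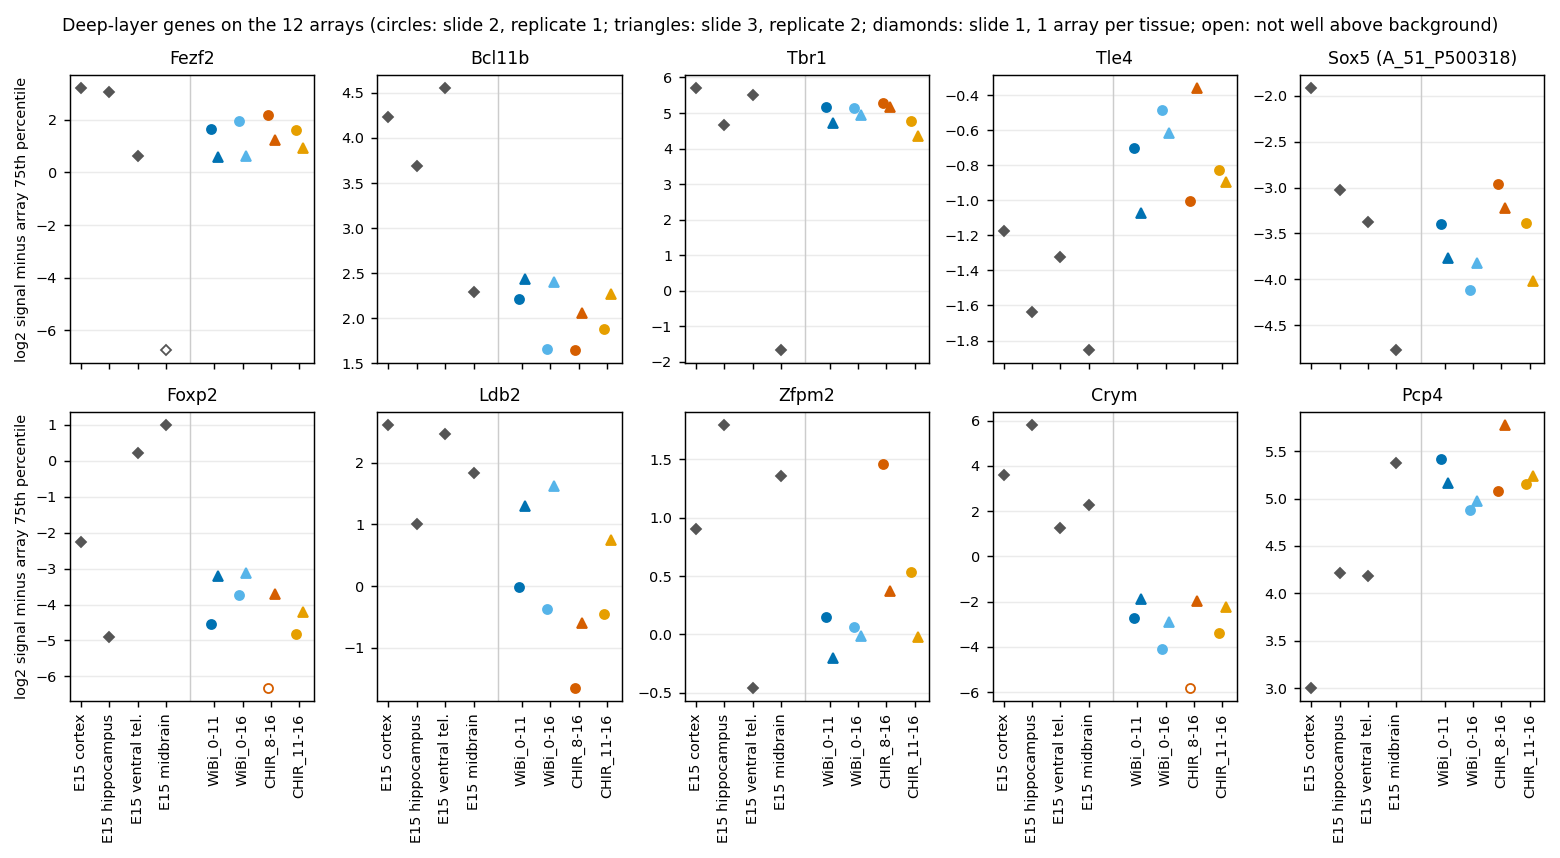
Normalised log2 signal (vertical axis) of the 10 deep-layer genes on all 12 arrays: 4 E15 tissues as diamonds and the 4 culture groups as a circle (slide 2) and a triangle (slide 3), with open symbols where the probe was not well above background. Each panel has its own axis, and Sox5 is shown by probe A_51_P500318. Fezf2 lay lower on slide 3 than on slide 2 in all 4 culture groups, and Ldb2 higher.

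Fezf2, the master factor of layer 5 output neurons, was well above background on all 8 culture arrays. Its levels were 1.67 and 0.57 in WiBi_0-11, 1.94 and 0.63 in WiBi_0-16, 2.19 and 1.24 in CHIR_8-16, and 1.62 and 0.95 in CHIR_11-16, with slide 2 first here and for every gene below. CHIR_8-16 was the highest group on each slide, but its slide 3 array lay below the slide 2 arrays of all the other groups. The difference between CHIR_8-16 and WiBi_0-11 was 0.60 (SE 0.62, 95% interval -0.94 to 2.13, adjusted p = 0.882), and with the slide block its SE was 0.18 and its adjusted p 0.159. For the other 2 groups the differences from WiBi_0-11 were 0.17 for CHIR_11-16 and 0.17 for WiBi_0-16, both with an adjusted p of 1.

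Bcl11b, a zinc finger factor that Fezf2 acts through in layer 5 neurons, was read here by its brighter probe, A_52_P925277. It stood at 2.21 and 2.43 in WiBi_0-11, 1.66 and 2.40 in WiBi_0-16, 1.64 and 2.06 in CHIR_8-16, and 1.88 and 2.27 in CHIR_11-16. WiBi_0-11 was highest and CHIR_8-16 lowest on both slides, but the groups overlapped across slides. The probe shown above gave another order. By it CHIR_11-16 was lowest on slide 2 (1.326 against 1.345 in CHIR_8-16) and WiBi_0-16 highest on slide 3 (1.978 against 1.91 in WiBi_0-11). CHIR_8-16 minus WiBi_0-11 was -0.47 (SE 0.32, adjusted p = 0.741, with the slide block 0.191), and the probe shown above gave -0.38 in the fit of every probe. CHIR_11-16 minus WiBi_0-11 was -0.25 and WiBi_0-16 minus WiBi_0-11 was -0.29.

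Tbr1, which specifies layer 6, was bright in every culture. Its levels were 5.18 and 4.72 in WiBi_0-11, 5.15 and 4.94 in WiBi_0-16, 5.28 and 5.18 in CHIR_8-16, and 4.77 and 4.35 in CHIR_11-16. By this brighter of its 2 probes, CHIR_8-16 was the highest and CHIR_11-16 the lowest group on each slide. Their difference was 0.67 (SE 0.24, 95% interval 0.07 to 1.28), the only member test with an unadjusted p under 0.05 (0.0339); its adjusted p was 1, and 0.258 with the slide block. In that comparison 3.82% of all genes had an unadjusted p under 0.05. The second Tbr1 probe, A_55_P2405129, differed the same way, by 0.97 (SE 0.35, adjusted p = 1 over all passing probes). By that second probe the highest group was WiBi_0-16, at -0.727 and -1.42, against -0.905 and -1.421 in CHIR_8-16. CHIR_8-16 minus WiBi_0-16 was 0.187 by the first probe and -0.089 by the second. Against WiBi_0-11 the Tbr1 differences by the first probe were 0.28 for CHIR_8-16 and -0.39 for CHIR_11-16.

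Tle4, a co-repressor kept in layer 6 neurons that project to the thalamus, ran from -1.07 to -0.36 over the 8 cultures. Its slide 2 array was the lowest of its slide in CHIR_8-16, at -1.01, and its slide 3 array the highest of its slide, at -0.36, so the order of the groups turned between slides. CHIR_8-16 minus WiBi_0-11 was 0.21 (SE 0.27, adjusted p = 0.926).

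Sox5 by the repeat probe gave 6.37 and 6.15 in WiBi_0-11, 6.64 and 6.14 in WiBi_0-16, 7.36 and 6.11 in CHIR_8-16, and 6.19 and 6.0 in CHIR_11-16. Apart from CHIR_8-16 on slide 2 the arrays lie between 6.0 and 6.64. By A_51_P500318 the levels were -3.40 and -3.77, -4.12 and -3.82, -2.96 and -3.23, and -3.38 and -4.02 in the same order, and both CHIR_8-16 arrays were above all 6 others. The difference between CHIR_8-16 and WiBi_0-11 was 0.48 (SE 0.43, adjusted p = 0.839) by the repeat probe and 0.49 (SE 0.29, adjusted p = 0.703 over all passing probes) by the other. Between CHIR_8-16 and WiBi_0-16 the repeat probe differed by 0.35 (SE 0.43, adjusted p = 0.919), the second by 0.87 (SE 0.29, adjusted p = 0.33) and A_55_P2088765 by -0.58 (SE 0.79, adjusted p = 0.941). That last probe was well above background on 5 of the 8 cultures and gave 0.25 (SE 0.79) between CHIR_8-16 and WiBi_0-11.

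**Figure D2:**
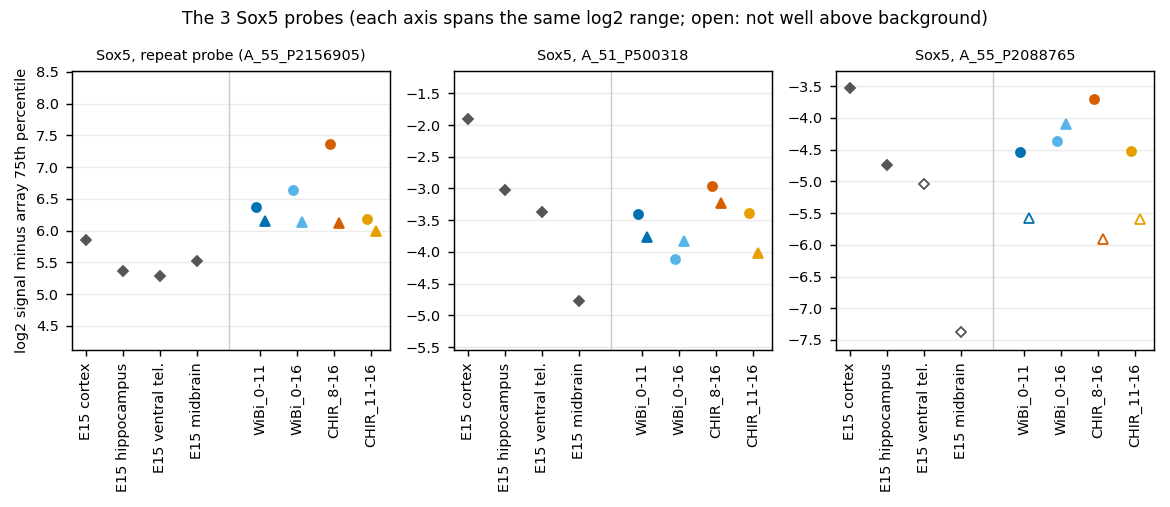
Normalised log2 signal (vertical axis) of the 3 Sox5 probes on the 12 arrays, with tissues as diamonds, slide 2 as circles, slide 3 as triangles and open symbols where the probe was not well above background. The 3 axes cover the same span. The repeat probe lies at 5.28 to 5.86 in all 4 tissues, while A_51_P500318 lies at -1.91 in E15 cortex and -4.77 in E15 midbrain.

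Foxp2, a forkhead factor of layer 6 and of striatal neurons, was weak in the cultures. By probe A_66_P130601 it stood at -4.55 and -3.20 in WiBi_0-11, -3.72 and -3.12 in WiBi_0-16, -6.31 and -3.71 in CHIR_8-16, and -4.83 and -4.22 in CHIR_11-16. The first CHIR_8-16 array was not well above background, and without that array the CHIR_8-16 level lay inside the range of the other groups. CHIR_8-16 minus WiBi_0-16 was -1.59 (SE 0.91, adjusted p = 0.576) and CHIR_8-16 minus WiBi_0-11 was -1.14 (SE 0.91, adjusted p = 0.802). The second probe, A_51_P233753, was well above background on 3 of the 8 cultures and on neither CHIR_8-16 array. In the fit of every passing probe with the slide block it gave the only call of a member probe between groups, CHIR_8-16 minus WiBi_0-16 at -1.40 (adjusted p = 0.036, and 0.349 without the block).

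Ldb2, a LIM-domain binding cofactor of layer 5 neurons, showed the widest gap between groups. Its levels were -0.02 and 1.31 in WiBi_0-11, -0.38 and 1.63 in WiBi_0-16, -1.65 and -0.60 in CHIR_8-16, and -0.46 and 0.75 in CHIR_11-16. Both CHIR_8-16 arrays lay below all 6 others, and on each slide CHIR_8-16 was the lowest and CHIR_11-16 the next. CHIR_8-16 minus WiBi_0-11 was -1.63 on slide 2 and -1.90 on slide 3, a mean difference of -1.77, or 3.40-fold (SE 0.86, adjusted p = 0.592). With the slide block the SE was 0.25 and the adjusted p 0.0646. Against WiBi_0-16 the difference was -1.75 (adjusted p = 0.491, and 0.0512 with the block), and against CHIR_11-16 it was -1.27 (adjusted p = 1, and 0.229 with the block). None of these passed. CHIR_11-16 minus WiBi_0-11 was -0.50 and WiBi_0-16 minus WiBi_0-11 was -0.02.

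Zfpm2 (also called Fog2), a cofactor of GATA factors that is kept in layer 6 neurons, went the other way. It stood at 0.15 and -0.21 in WiBi_0-11, 0.06 and -0.01 in WiBi_0-16, 1.46 and 0.37 in CHIR_8-16, and 0.54 and -0.02 in CHIR_11-16. CHIR_8-16 was the highest group on both slides, by more on slide 2 than on slide 3. CHIR_8-16 minus WiBi_0-11 was 0.95 (SE 0.40, 95% interval -0.05 to 1.93), with the smallest adjusted p of any member in that comparison, 0.535, and 0.138 with the slide block. The second Zfpm2 probe shares 7 bases with the first and gave 0.93.

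Crym, a thyroid hormone binding protein that marks layer 5 output neurons, was low in the cultures. It stood at -2.74 and -1.90 in WiBi_0-11, -4.08 and -2.89 in WiBi_0-16, -5.80 and -1.99 in CHIR_8-16, and -3.39 and -2.22 in CHIR_11-16. The first CHIR_8-16 array was not well above background, and the second was level with WiBi_0-11. CHIR_8-16 minus WiBi_0-11 was -3.07 on slide 2 and -0.09 on slide 3, a mean of -1.58 (SE 1.25, adjusted p = 0.8). Leaving out the second CHIR_8-16 array in the fit with the slide block, so that the comparison rested on the dim array, gave a call for Crym, the only member call in the blocked leave-one-out fits.

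Pcp4, a small calmodulin-binding protein of layer 5 neurons, was high throughout, at 4.88 to 5.78. The largest of its differences, CHIR_8-16 minus WiBi_0-16, was 0.51 (SE 0.27, 95% interval -0.15 to 1.16, adjusted p = 0.528).

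**Figure D3:**
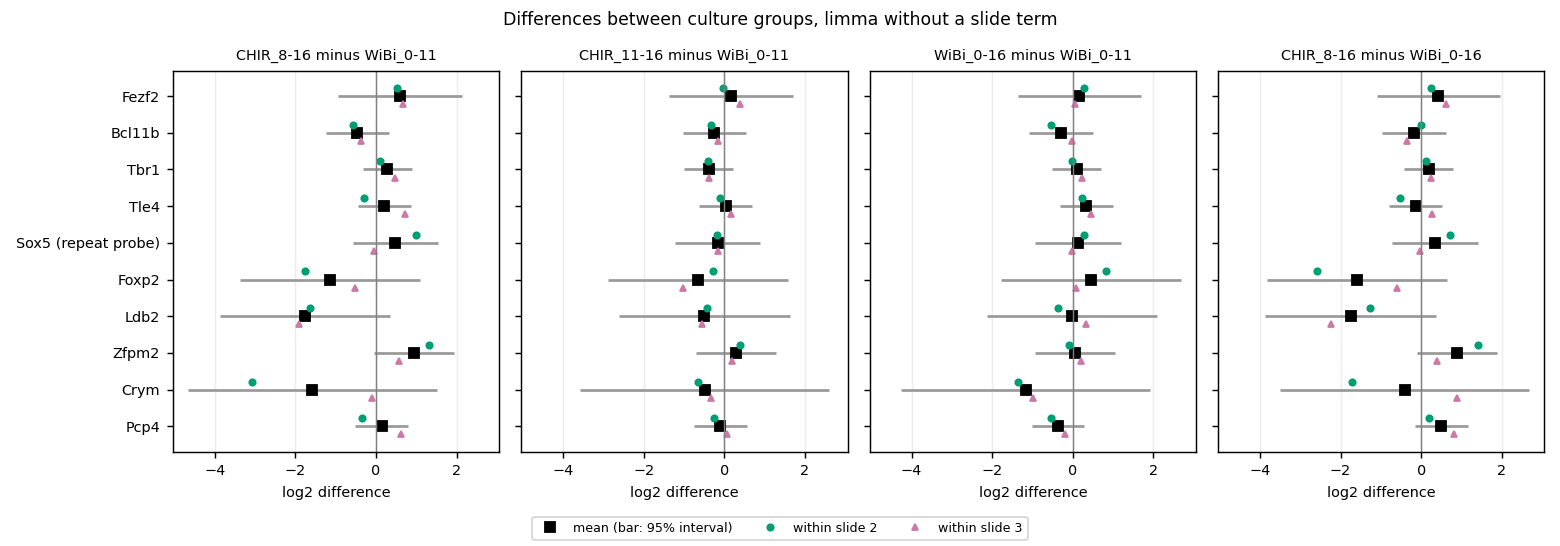
Log2 differences between culture groups (horizontal axis) for the 10 genes in 4 comparisons: squares are means, bars their 95% intervals from limma without a slide term, circles the difference within slide 2 and triangles within slide 3. Ldb2 lies at -1.77 and Zfpm2 at 0.95 between CHIR_8-16 and WiBi_0-11. All the bars drawn cross 0.

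Over the list, 6 genes were higher and 4 lower in CHIR_8-16 than in WiBi_0-11, with a median difference of 0.17 against 0.05 over all genes. In CHIR_11-16 it was 3 higher and 7 lower, with a median of -0.21 against -0.01. In WiBi_0-16 it was 6 higher and 4 lower, with a median of 0.08 against 0. These 3 comparisons share the WiBi_0-11 arrays. When the 4 agonist arrays were set against the 4 inhibitor-only arrays, the values of all 10 genes overlapped, while 12.3% of all genes did not overlap. The largest of those differences were -1.12 for Ldb2 (SE 0.61, adjusted p = 0.455), -1.12 for Foxp2 (SE 0.57, adjusted p = 0.421) and 0.59 for Zfpm2 (SE 0.29, adjusted p = 0.409).

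Fezf2 and Ldb2 differed between the 2 slides in every group. Slide 3 minus slide 2 within groups, a comparison added after the slides were seen, called 4 of the 10 genes, 3 higher and 1 lower on slide 3. It called 34.3% of all genes, 24.3% higher and 10% lower, so the share of members is near that of all genes, and the median over all genes was 0.11. Fezf2 was lower on slide 3 in 4 of 4 groups, by -0.67 to -1.30, with a fitted difference of -1.01 (SE 0.13, adjusted p = 0.00557 by limma). Ldb2 was higher in 4 of 4 groups, by 1.05 to 2.0, with a fitted difference of 1.40 (SE 0.18, adjusted p = 0.00552). These 2 genes passed with quantile scaling, median scaling, normexp and the authors' deposited table. They also passed when either array of a culture group was left out, which takes that group's slide difference out of the fit.

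Bcl11b (0.44, adjusted p = 0.0358) and Foxp2 (1.29, adjusted p = 0.0439) were also called, but Bcl11b lost its call when arrays were scaled by their medians (0.12), and Foxp2 lost it with quantile scaling (0.91), median scaling (0.97) and the authors' deposited table (0.59). Leaving out either array of a group gives the same slide fit, so the 8 such fits are 4 distinct ones. Bcl11b was called in 0 of these 4 and Foxp2 in the 1 without a CHIR_8-16 array. Crym was higher on slide 3 in 4 of 4 groups and was not called, at 1.76 (SE 0.52, adjusted p = 0.052), of which CHIR_8-16 gave 3.82 and the other groups 0.84 to 1.20. It was called with normexp (1.03, adjusted p = 0.00497), with a trended prior, and at 1.07 in the distinct fit without a CHIR_8-16 array. Tbr1 (-0.30), Zfpm2 (-0.52) and Sox5 by the repeat probe (-0.54) were lower on slide 3 in 4 of 4 groups and were not called. With median scaling or a trended prior all 3 were called, Sox5 also with quantile scaling, normexp and the deposited table, and Zfpm2 also with normexp. Because replicate number and slide coincide, a difference between slides cannot be told apart from one between the RNA pools that carry these numbers. Of all calls, 70.7% were higher on slide 3, 57.1% with quantile scaling and 30.3% with median scaling.

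**Figure D4:**
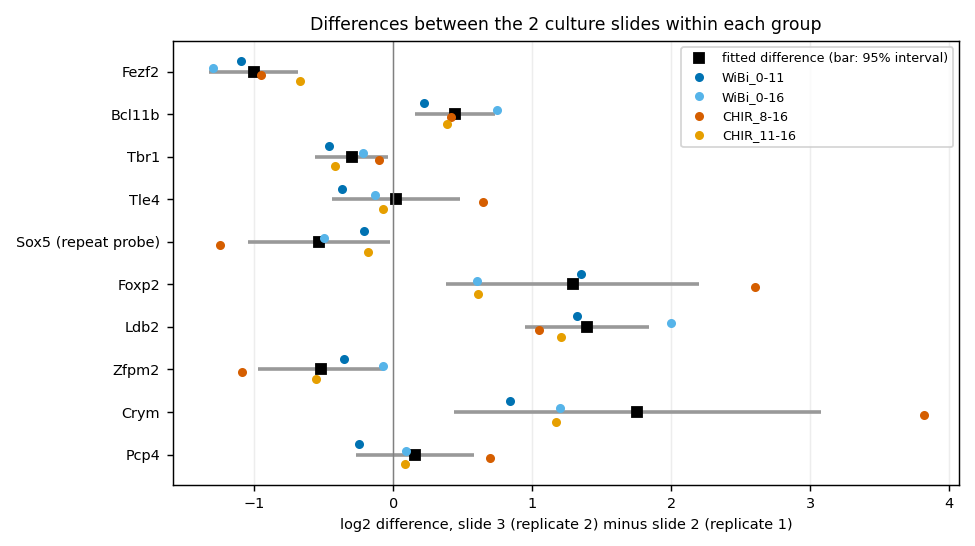
Log2 difference between slide 3 and slide 2 (horizontal axis) for the 10 genes: squares and bars give the fitted difference with its 95% interval, and coloured points the difference in each of the 4 culture groups. Fezf2 lies at -1.01 and Ldb2 at 1.40, and every group of each falls on its own side of 0.

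The embryonic tissues show how these genes are spread over the E15 brain, 1 array each and so without a test. Fezf2 was alike in cortex, at 3.22, and hippocampus, at 3.04, was 0.64 in ventral telencephalon, and was not well above background in midbrain, at least 704-fold below cortex. The bound sets the cortex level against the higher of the midbrain signal and the lowest signal on that array that was well above background. It holds for the processed signal only. In log2 units it is -9.46, against a difference of -8.37 in the authors' deposited table and -6.93 with normexp. Tbr1 was 5.71 in cortex, 4.65 in hippocampus and 5.51 in ventral telencephalon but -1.68 in midbrain, 167-fold below cortex. Bcl11b was 4.24 in cortex and 3.69 in hippocampus, 4.56 in ventral telencephalon, which holds the future striatum, and 2.29 in midbrain.

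Crym, Foxp2, Pcp4 and Zfpm2, like Bcl11b, were higher in another tissue than in cortex. Crym was 3.58 in cortex but 5.81 in hippocampus, 4.69-fold higher, with 1.27 in ventral telencephalon and 2.27 in midbrain. Foxp2 was highest outside the pallium, at 1.0 in midbrain and 0.22 in ventral telencephalon against -2.25 in cortex and -4.90 in hippocampus, and its second probe kept this order. Pcp4 was lowest in cortex, at 3.01, against 4.22 in hippocampus, 4.18 in ventral telencephalon and 5.38 in midbrain.

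Ldb2 was 2.62 in cortex, 1.02 in hippocampus, 2.46 in ventral telencephalon and 1.83 in midbrain. Zfpm2 was 0.90 in cortex, 1.80 in hippocampus, -0.46 in ventral telencephalon and 1.36 in midbrain. Sox5 by A_51_P500318 was -1.91 in cortex and -3.02, -3.38 and -4.77 in those 3 tissues, and Tle4 was lower than cortex, at -1.18, in all 3, at -1.64, -1.32 and -1.86. Tbr1 and the Sox5 repeat probe changed sign under the authors' deposited table, Tbr1 in ventral telencephalon against cortex and Sox5 in midbrain.

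With the brightest probe of each gene, 2 of 10 members were at least 2-fold higher in hippocampus than in cortex (Crym and Pcp4) and 3 lower (Foxp2, Ldb2 and Tbr1). Over all genes 4.88% were that much higher and 4.2% that much lower. For ventral telencephalon 2 were higher (Foxp2 and Pcp4) and 3 lower (Fezf2, Crym and Zfpm2), with 6.64% and 5.35% of all genes. For midbrain 2 were higher (Foxp2 and Pcp4) and 4 lower (Fezf2, Tbr1, Bcl11b and Crym), with 11.2% and 6.38% of all genes. These counts read Sox5 by the repeat probe. By A_51_P500318 Sox5 was also at least 2-fold below cortex in hippocampus (-1.11), ventral telencephalon (-1.47) and midbrain (-2.86). Tle4 by its other probe was that much lower in hippocampus (-1.09).

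Set beside E15 cortex, the cultures held Tbr1 closest among the 3 specifying factors. All 8 arrays were below cortex for these factors, with a mean difference of -0.77 for Tbr1 (4.95 against 5.71), -1.87 for Fezf2 (1.35 against 3.22) and -2.17 for Bcl11b (2.07 against 4.24). By the second Tbr1 probe the mean difference was -0.56, with 2 of 8 arrays above cortex. Tbr1 is also made by Cajal-Retzius cells, the earliest-born cells at the cortical surface. Genes of these cells had a summed log2 level of 4.47 to 5.56 in the cultures and 2.31 in E15 cortex. The sum was 3.73 in E15 hippocampus, 2.58 in ventral telencephalon and highest in midbrain, at 5.70, where Tbr1 was -1.68. The part of Cajal-Retzius cells in the Tbr1 level of the cultures was not tested. Crym showed the widest gap, -3.13 against 3.58 or 105-fold with the array that was not well above background, and 80.3-fold over the other 7. All 8 cultures were below all 3 telencephalic tissues for Crym and Bcl11b. The difference was -2.54 for Ldb2 (0.07 against 2.62) and -1.96 for Foxp2 (-4.21 against -2.25, and -1.65 without its dim array), below cortex on 8 of 8 arrays, and -0.61 for Zfpm2, below on 7 of 8.

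Pcp4 was the member that stood higher in the cultures, 5.21 against 3.01 or 4.61-fold, on 8 of 8 arrays. Tle4 was higher on 8 of 8 by 0.43 with its brighter probe and differed by -0.27 in the mean with the other, so its direction is not settled. Sox5 split by probe, with a difference of 0.51 by the repeat probe, -1.68 by A_51_P500318 and -0.80 for the mean of its probes. Of all genes, 15.9% were at least 2-fold higher and 8.2% at least 2-fold lower in the mean of the cultures. Tissue and culture arrays lay on different slides, so source and slide cannot be told apart.

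**Figure D5:**
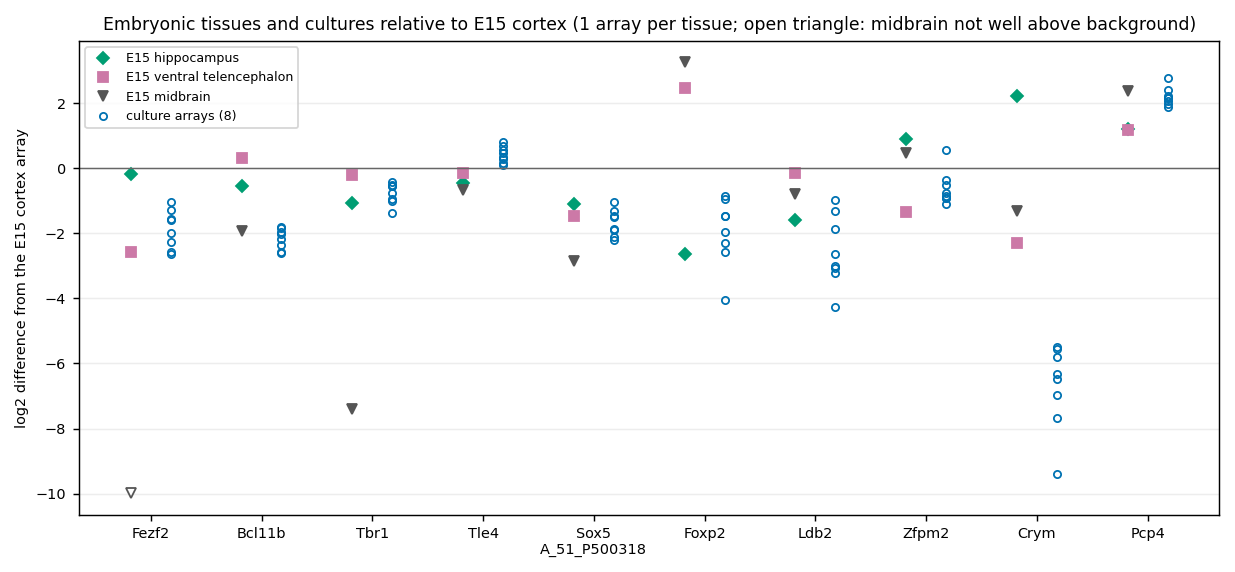
Log2 difference from the E15 cortex array (vertical axis) for the 10 genes: hippocampus as diamonds, ventral telencephalon as squares, midbrain as triangles and the 8 culture arrays as open circles, with Sox5 by probe A_51_P500318. The open triangle of Fezf2 marks a midbrain signal not well above background. The Crym cultures lie at least 5 log2 units below cortex and the Pcp4 cultures above it.

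The members' profiles over the arrays were compared with those of other genes. Over the 12 arrays, which share 3 slides and 2 sources, the profile of Fezf2 was most like those of Map4k4 (Pearson r = 0.943), Tfap2c (0.941) and Tbr1 (0.941), out of 15277 genes compared. Tbr1 was most like Fezf2 (0.941), and Bcl11b most like Strbp (0.947), Sar1a (0.946) and Tiam2 (0.944). The 12 arrays include E15 midbrain, far below all the others for Fezf2 (-6.76, not well above background) and for Tbr1 (-1.68). Within the 8 cultures Fezf2 correlated at 0.622 with Tbr1, 0.465 with Map4k4 and 0.133 with Tfap2c. There Bcl11b correlated at 0.701 with Strbp, 0.702 with Sar1a and 0.794 with Tiam2. Also within the 8 cultures, Fezf2 correlated at -0.916 with Bcl11b and at -0.909 with Ldb2, and Bcl11b at 0.882 with Ldb2. These are descriptions, and the 8 arrays share 2 slides, between which Fezf2 differed one way and Bcl11b and Ldb2 the other.

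Other markers of layers 5 and 6 and of the subplate gave 1 call. Of 20 measured of 22 genes, Otx1, a homeobox factor of layer 5 and of progenitors, was higher in CHIR_8-16 than in WiBi_0-16, where it was not well above background: -3.11 and -2.89 against -5.89 and -5.85. CHIR_8-16 was at least 5.73-fold higher by the same kind of bound (limma adjusted p = 0.0428, and 0.0202 with the slide block). Against WiBi_0-11, at -5.12 and -5.20, the difference was 2.16 (adjusted p = 0.129, and 0.0201 with the block). CHIR_11-16 lay between, at -4.26 and -3.96. Over the 20 genes the median of CHIR_8-16 minus WiBi_0-11 was -0.07, with 9 higher and 11 lower.

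Nxph3, a secreted protein of layer 6b and subplate, followed at 1.66 (adjusted p = 0.456), and the largest differences the other way were -1.61 for S100a10 (adjusted p = 0.323) and -1.34 for Ntsr1 (adjusted p = 0.371). Upper-layer genes gave 0 calls of 16 in that comparison and a median of -0.20, the largest differences being -2.12 for Mef2c (adjusted p = 0.229) and -1.52 for Inhba (adjusted p = 0.708), with Pou3f2 at 1.37 the other way. Inhba was well above background on 4 of 8 cultures and its difference came from slide 2, where WiBi_0-11 was -2.57 and CHIR_8-16 -5.50, against -5.30 and -5.41 on slide 3. With the slide block Mef2c was called lower in CHIR_8-16 than in WiBi_0-16 (-2.15, adjusted p = 0.0382). The difference between the layer lists was not tested.

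Among markers of other cells are the genes of GABAergic and striatal neurons, of which the striatal ones share Bcl11b and Foxp2 with the deep layers. Of 20 measured, 14 were lower in CHIR_8-16 than in WiBi_0-11, with a median of -1.07, 0 called, and 2 called lower with the slide block: Sp8 (-3.82, adjusted p = 0.0167) and Gad1 (-2.69, adjusted p = 0.0473). Their summed log2 level was 5.24 to 6.48 in CHIR_8-16 and 6.51 to 6.80 in the other groups, and at least 18 of the 20 were well above background on each culture array. Gad1 stood at -1.26 and -1.40 in CHIR_8-16 and at 0.79 to 1.82 elsewhere, and Dlx2 at 0.53 and -0.66 against 2.58 to 3.96. The 6 others were higher, by 0.19 to 0.63, and were not called. Striatal genes went both ways. Ebf1 (0.62) and Tac1 (0.19) were among the 6 higher genes. Penk (-3.66, limma adjusted p = 0.249) and Drd1 (-1.87, adjusted p = 0.349) were among the 14 lower ones. The part of these cells in the lower Bcl11b and Foxp2 values of CHIR_8-16 was not tested.

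Pallial lineage genes had a median of 0.46 (13 measured, 10 higher), 0 called and 1 with the block, Neurog2 (3.14, adjusted p = 0.0244). Eomes, a factor of intermediate progenitors, stood at 1.92 to 3.84 in the cultures and 2.99 in E15 cortex. Hippocampal genes had a median of 0.03 (7 measured), 0 called and 1 with the block, Lef1 (2.97, adjusted p = 0.0244). Genes of Cajal-Retzius cells, which also make Tbr1, had a median of 0.04 (8 measured) and 0 called in either fit. Reln stood at -0.14 to 1.34 in the cultures and -1.19 in E15 cortex.

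Mesenchyme genes had a median of -1.61 (8 measured), with Col3a1 called lower with the block (-2.81, adjusted p = 0.0448). Glial genes had a median of -0.91 (8 measured), with Olig1 (-5.09) and Olig2 (-3.32) called lower with the block. Diencephalon and midbrain genes had a median of 0.36 (15 measured), progenitor genes 0.19 (11 measured) and pan-neuronal genes -0.20 (15 measured), with 0 called in either fit. Their part in the members' values was not tested.

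Since CHIR acts through beta-catenin and the TCF and LEF factors, the promoter windows of the members were searched for 4 versions of the letters these factors bind, on both strands, in the 250 bases before the start. The first was CTTTGAA. The next was CTTTGAT. A further version was CTTTGTA. The last was CTTTGTT. RefSeq windows (GRCm38.p6) matched 6 of the 10 members, with 7 windows, and 2 held a match, against 14.8% of 32851 windows of the same length. Tbr1 (chr2:61804203-61804452, plus strand) held it 187 bases before the start and Bcl11b (chr12:108003415-108003664, minus strand) 89 bases before. Both windows are shown with the match in capitals, because these are the members for which letters of this kind stand next to the gene whose level was measured.

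Tbr1: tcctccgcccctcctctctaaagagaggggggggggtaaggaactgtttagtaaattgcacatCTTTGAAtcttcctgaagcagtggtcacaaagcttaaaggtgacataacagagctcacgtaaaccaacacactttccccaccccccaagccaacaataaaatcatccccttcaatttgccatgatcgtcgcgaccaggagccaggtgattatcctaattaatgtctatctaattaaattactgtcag
Bcl11b: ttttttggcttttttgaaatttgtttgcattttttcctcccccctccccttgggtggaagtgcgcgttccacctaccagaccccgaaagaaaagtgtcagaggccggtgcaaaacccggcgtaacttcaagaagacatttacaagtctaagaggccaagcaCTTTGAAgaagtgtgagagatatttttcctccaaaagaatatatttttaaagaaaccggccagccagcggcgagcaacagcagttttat

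Neither gene was called in any comparison of groups: CHIR_8-16 minus WiBi_0-11 was 0.28 for Tbr1 and -0.47 for Bcl11b. The windows of Fezf2, Sox5, Pcp4 and Tle4 held no match. A match is a run of letters and not a bound site.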

How the data were processed

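Cy3-labelled cRNA was hybridised to 12 single-colour arrays. Per the file headers, the deposited intensity values come from version 10.7.3.1 of Agilent Feature Extraction, and the processed signal is background-subtracted. The submitters' processing notes name Agilent Feature Extraction 9.1 and limma, without a limma version. The deposited series table holds the authors' log2 values (column medians 6.19 to 6.24), and how they were scaled is not given in the sources used here; it served only as an alternative.

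Each array's 75th percentile was subtracted from its log2 signals, which were averaged over the spots of a probe, without control or flagged spots. Flags and the well-above-background calls came from the deposited files. A probe passed when some culture group had it well above background on both of its arrays, and 36416 of 55681 probes did. The brightest passing probe stood for each gene. Genes were named by the files' accessions through the RefSeq table where they matched (28026 and 41 probes), then by symbol, and members by the files' own symbols. Groups were compared in limma 3.58.1 (R 4.3.3), with 1 mean per culture group, 2-sided, and with slide as a replicate block as an alternative. Same-numbered arrays of different groups deviated together from their group means (correlation 0.578 to 0.667 over 6 pairs), so the numbers pair by slide, and blocked values stand beside the results they bear on. Residual SDs had a median of 0.317, and 0.182 once slide was in the fit. No 2 arrays held identical values. The fits were tested on simulated data.

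The text names all 10 members, the markers Gad1, Dlx2, Reln, Eomes, Neurod6 and Tubb3, called members of 11 other gene lists or their largest differences, and the 3 genes most like Fezf2, Bcl11b and Tbr1; a few items that these rules name are not reported here. Members and lists were chosen with earlier results of these data known. Alternatives were quantile and median scaling, normexp, the deposited table, other probe filters and summaries, a trended prior, fits of only the groups compared, and leaving out each culture array. The number of arrays limits precision.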

Additional observations from a re-analysis of the deposited data

Results flagged for a closer look

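Among the 4 arrays of the agonist cultures, Sox5 by the repeat probe stood apart in CHIR_8-16 replicate 1, at 7.36 against 6.0 to 6.19 in the other 3, a gap of 0.865 of the range where 0.829 marks a far value in 4 samples. Chance marks about 1 in 20 groups of 4 values drawn from 1 population. These 4 arrays come from 2 culture groups and 2 slides, so that rate need not hold for them. On the same array the Sox5 probe A_51_P500318 lay at -2.96, next to -3.23 in CHIR_8-16 replicate 2. Probe A_55_P2088765 lay at -3.71, against -5.90 in replicate 2, where it was not well above background. By each of these probes CHIR_8-16 replicate 1 was the highest culture array.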

How the results depend on the processing

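The count of members called stayed at 0 in all 7 comparisons and the F test under every alternative, the slide block (replicate block, 0 calls) and each left-out array included, over 8 of the 10 genes where all 8 arrays had to be well above background and without the F test where only the groups compared were fitted, with 2 exceptions under the block: 1 probe of Foxp2 when every probe was tested, and Crym without CHIR_8-16 replicate 2. Arrays were not left out in turn for Otx1. Signs of uncalled differences were less steady: without CHIR_8-16 replicate 1, 14 of 70 turned, 8 of 70 without WiBi_0-11 replicate 2 or WiBi_0-16 replicate 1, and 5 of 70 with the authors' deposited table. Median scaling moved the median of all genes by over 0.1 in 4 comparisons: from 0.05 to -0.08 in CHIR_8-16 minus WiBi_0-11, from 0.03 to -0.12 in CHIR_8-16 minus CHIR_11-16, from -0.04 to 0.08 in CHIR_11-16 minus WiBi_0-16 and from 0.11 to -0.22 in slide 3 minus slide 2. Slide 3 minus slide 2 called 4 members, 7 with normexp on the median signal, 8 with a trended prior, and 2 to 4 when 1 array was left out; the cause was not tested. With 2 arrays a group the widest 95% intervals were those of Crym, -4.67 to 1.51 for CHIR_8-16 minus WiBi_0-11. The normexp correction used the median signal, a change made after the files were seen.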
